A study of Homo sapiens with 4 samples.

Results

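The genes described here encode subunits of the Polycomb repressive complexes, a pair of chromatin complexes that keep developmental and cell-cycle genes silent. They are *EZH1*, *EZH2*, *EED*, *SUZ12* and *JARID2* of Polycomb repressive complex PRC2, and *CBX2*, *CBX7*, *CBX8* and *RING1* of PRC1. They were taken by gene symbol from the table of 32673 genes, all 9 had a row, and all 9 passed the filter on low values (a mean of at least 0.5 FPKM).

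PRC2 methylates histone H3 on lysine 27 through either of the alternative enzymes EZH1 and EZH2, which need EED and SUZ12 to be active, while JARID2 is an accessory subunit that helps the complex onto chromatin. PRC1 ubiquitinates histone H2A through RING1 or RNF2, and its canonical form carries 1 CBX protein whose chromodomain binds the mark laid down by PRC2. EZH2 is known to prevail in dividing cells and EZH1 in resting ones. In leukaemia, genes of PRC2 have been found both inactivated and overactive, and CBX proteins are known to set the balance between self-renewal and differentiation of blood stem cells.

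Total RNA of 2 cell lines was sequenced, with 2 libraries per line, each from 10000000 cells. TF1 is a human erythroleukaemia line that depends on the cytokine GM-CSF. TF1-BA cells are TF1 cells that carry p210 BCR-ABL from a retrovirus and are sensitive to imatinib, an inhibitor of the BCR-ABL kinase. TF1-BAR cells are the imatinib-resistant line derived from TF1-BA cells by continuous exposure to imatinib, and their titles also carry the word vector. Per the labels both lines were grown with 2 ng/ml GM-CSF and the TF1-BAR cells with 2 µM imatinib as well, while the methods of the study state a higher GM-CSF concentration for both. Resistance, the drug in the medium and any vector therefore cannot be told apart, and the resistant group is 1 derived line. Nothing says that the 2 libraries of a line came from separate cultures, so the p-values measure only the spread between these libraries, which may be technical.

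Expression is given as FPKM, which scales the fragments of a gene by its transcript length and by the size of the library, and differences as log2 fold changes of TF1-BAR over TF1-BA on the log2(FPKM + 0.5) scale, which understates changes of low genes. The library sizes worked out from the FPKM ran from 15465497 to 18042299 fragments. Of 9 markers of TF1 cells fixed for this work, all 9 passed the filter and 4 (44.4%) were higher in TF1-BAR cells at an adjusted p under 0.05 (limma), against 16.3% of all genes. With TF1-BA replicate 1 left out 1 was higher, and with TF1-BA replicate 2 left out 0 were (4 of the 9 at an unadjusted p under 0.05, against 28% of all genes). The summed level of the 9 markers was 290.2 and 289.8 FPKM in TF1-BA and 381.2 and 406.6 FPKM in TF1-BAR libraries. Of 11 markers of stromal, lymphoid and epithelial cells, 9 were in the table and 3 passed the filter, of which 1 was higher and 1 was lower (limma, adjusted p under 0.05). The summed level of the list was 22.8 and 24.7 FPKM in TF1-BA against 10.6 and 10.9 FPKM in TF1-BAR libraries. *CD3D* had 19.2 and 20.7 against 5.74 and 6.36 FPKM (log2 fold change −1.64, adjusted p = 0.00282, limma) and *CD79A* 1.84 and 2.19 against 3.55 and 3.15 FPKM (0.61, adjusted p = 0.0260, limma), while *CD3E*, *COL1A2* and *KRT5* had at most 1 fragment in any library. The call of *CD79A* ended with any 1 library left out (adjusted p from 0.0795 to 0.154, limma) and that of *CD3D* without TF1-BA replicate 2 (adjusted p = 0.0517, limma). Whether these marker levels have a part in the values below was not tested. In RNA from whole cultures, fewer cells that express a gene and less RNA per cell cannot be told apart. The question was which Polycomb subunits differed in mRNA level between resistant and sensitive cells.

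The stretches just upstream of the start sites of 4 of the genes are shown because the comparisons below turn on *EZH1* against its alternative *EZH2*, on *JARID2*, the only one of the 9 that fell, and on *SUZ12*, whose window shares a motif with that of *EZH1*. They come from RefSeq (GRCh38.p14), run 5′ to 3′ on the strand of the gene and stop before the first transcribed base. RefSeq windows were matched for 7 of the 9 genes. Capitals mark matches on either strand to the E2F letters TTTCCCGC, TTTCGCGC, TTTGCCGC or TTTGGCGC or to the letters CCAAT. They lie at chr17:42745050-42745290 on the minus strand (*EZH1*), chr7:148884322-148884541 on the minus strand (*EZH2*), chr17:31936757-31937006 on the plus strand (*SUZ12*) and chr6:15245819-15246068 on the plus strand (*JARID2*).
EZH1: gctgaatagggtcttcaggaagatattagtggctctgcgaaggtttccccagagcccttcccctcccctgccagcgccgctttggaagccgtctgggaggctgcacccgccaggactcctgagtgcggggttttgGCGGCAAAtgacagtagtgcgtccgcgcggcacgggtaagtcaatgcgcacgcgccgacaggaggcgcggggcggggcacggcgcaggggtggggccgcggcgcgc
EZH2: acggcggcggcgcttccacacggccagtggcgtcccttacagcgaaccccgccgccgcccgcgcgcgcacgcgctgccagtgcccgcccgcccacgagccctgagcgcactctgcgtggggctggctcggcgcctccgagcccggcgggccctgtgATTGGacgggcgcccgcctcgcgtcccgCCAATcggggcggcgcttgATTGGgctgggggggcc
SUZ12: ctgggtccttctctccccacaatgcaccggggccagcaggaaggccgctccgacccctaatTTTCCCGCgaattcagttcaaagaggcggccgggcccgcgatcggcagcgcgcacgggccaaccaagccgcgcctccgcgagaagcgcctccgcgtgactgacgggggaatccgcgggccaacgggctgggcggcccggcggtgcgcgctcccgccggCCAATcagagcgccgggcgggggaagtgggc
JARID2: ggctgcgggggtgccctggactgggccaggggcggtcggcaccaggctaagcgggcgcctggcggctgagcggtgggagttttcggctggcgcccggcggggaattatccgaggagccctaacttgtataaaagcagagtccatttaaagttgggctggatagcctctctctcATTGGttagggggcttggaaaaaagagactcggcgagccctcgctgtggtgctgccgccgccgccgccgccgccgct

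The stretch of *EZH1* held GCGGCAAA, an E2F match on the opposite strand that begins 115 bases upstream of its RefSeq start, and *SUZ12* held TTTCCCGC, which begins 189 bases upstream of its own. The stretches of *EZH1* and *EZH2* stop 9 and 30 bases short of the RefSeq start, since the start in the annotation of the files lies further upstream. Of 34941 RefSeq windows of 250 bases, 2.77% held at least 1 of the 4 E2F words. *EZH2* had no such match in its window and 3 CCAAT words in the printed stretch, against 1 each in *SUZ12* and *JARID2*, and 32% of all windows held CCAAT. These matches describe letters and are no evidence of binding.

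In TF1-BAR cells *CBX2*, *EZH1* and *CBX8* rose and *JARID2* fell, while *EZH2*, *EED*, *SUZ12*, *CBX7* and *RING1* did not pass the test. So 3 of the 9 genes were higher and 1 was lower at an adjusted p under 0.05 (limma, Benjamini-Hochberg over 15519 genes). Over all genes tested the background was 26.9% called, with 16.3% higher and 10.5% lower. The median log2 fold change of the 9 genes was 0.059 and that of all genes tested was 0.066. No member reached a log2 fold change of 1 in size, an added threshold that 4.75% of all genes passed. The libraries of the 2 lines did not overlap for 6 of the 9 genes, 5 higher and 1 lower in TF1-BAR cells, and over all genes tested this held for 69.3% (40.9% higher and 28.4% lower).

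**Figure D1:**
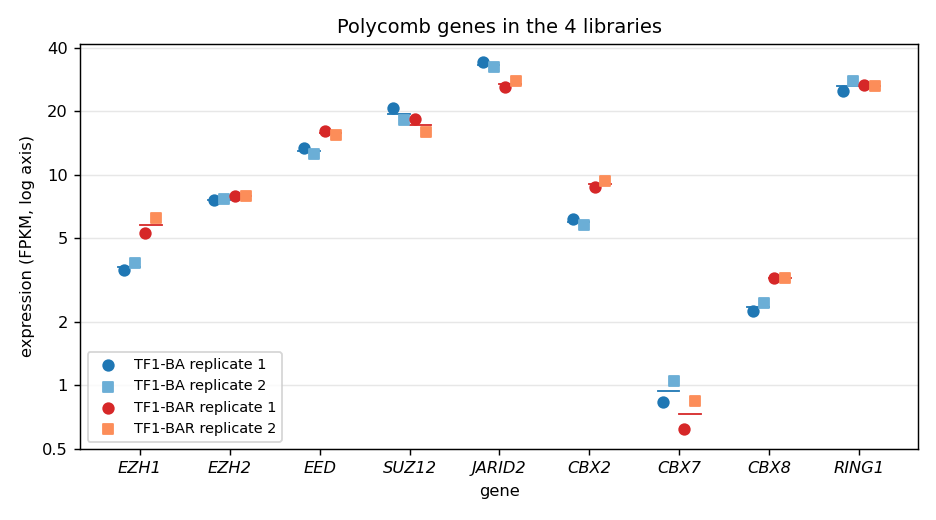
Expression (FPKM, log axis) of the 9 Polycomb genes in each TF1-BA library (blue) and TF1-BAR library (red and orange), with a line at the mean of each line's 2 libraries. *EZH1*, *CBX2* and *CBX8* lie higher and *JARID2* lower in both TF1-BAR libraries, while the points of *SUZ12*, *CBX7* and *RING1* overlap.

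Of the catalytic subunits of PRC2, *EZH1* rose and *EZH2* did not pass the test. *EZH1* (ENSG00000108799, chr17:42700275-42745049, minus strand) had 3.52 and 3.79 FPKM in the TF1-BA libraries and 5.28 and 6.24 FPKM in the TF1-BAR libraries, from 410 to 701 fragments per library. Both TF1-BAR values were above both TF1-BA values. The mean rose from 3.66 ± 0.192 to 5.76 ± 0.676 FPKM (SD, n = 2 each), a log2 fold change of 0.59 (SE 0.110, adjusted p = 0.0224, limma) or 1.503-fold. *EZH2* (ENSG00000106462, chr7:148807383-148884321, minus strand) had 7.55 and 7.68 FPKM in TF1-BA and 7.94 and 7.97 FPKM in TF1-BAR libraries, from 537 to 616 fragments. These pairs did not overlap either, but the log2 fold change was only 0.059 (SE 0.0718, adjusted p = 0.570, limma), and its size and sign depended on the scaling. It was 0.18 with the trend on GC content, length and level removed (adjusted p = 0.134, limma), 0.12 rescaled to TPM, 0.034 with upper-quartile scaling and 0.019 after quantile normalization. It was −0.062 with each chromosome centred on its own median and −0.016 with the median deviation of each chromosome removed. *EZH2* was the more abundant mRNA per length in all 4 libraries.

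The share of *EZH1* in the summed FPKM of the alternative enzymes sets both genes in one measure within each library, free of the scaling between libraries. It was 31.8% and 33.1% in TF1-BA and 39.95% and 43.9% in TF1-BAR libraries. The means were 32.4% ± 0.892 and 41.9% ± 2.81 (SD, n = 2 each), a difference of 9.50 percentage points. The exact two-sided permutation test gave p = 0.33, the smallest value that 2 libraries against 2 can reach.

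Of the core subunits that EZH1 and EZH2 share, *EED* and *SUZ12* did not pass the test. *EED* (ENSG00000074266, chr11:86244544-86278813, plus strand), which binds the methylated tail and activates the enzyme, had 13.5 and 12.5 FPKM in TF1-BA and 16.1 and 15.5 FPKM in TF1-BAR libraries, from 1358 to 1778 fragments. The TF1-BAR libraries were both higher. The log2 fold change of 0.27 (SE 0.0739) just missed the threshold (adjusted p = 0.0511, limma). It passed in 6 of 19 alternative fits, with an adjusted p from 0.0151 to 0.282 over all 19, and was 0.47 with the trend on GC content, length and level removed and 0.16 with the median deviation of each chromosome removed. *SUZ12* (ENSG00000178691, chr17:31937018-32001045, plus strand), which holds the core together, had 20.7 and 18.2 FPKM in TF1-BA and 18.4 and 15.9 FPKM in TF1-BAR libraries, from 1674 to 2450 fragments. Here the lines overlapped, the log2 fold change was −0.18 (SE 0.107, adjusted p = 0.262, limma), and no alternative passed the threshold. With the trend on GC content, length and level removed it was −0.021, rescaled to TPM −0.11, and with the median deviation of each chromosome removed −0.27.

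*JARID2* (ENSG00000008083, chr6:15246296-15522040, plus strand), which defines the PRC2.2 form of the complex, was the most abundant of the 9 genes per length in TF1-BA cells. It had 34.2 and 32.5 FPKM in TF1-BA and 26.1 and 27.9 FPKM in TF1-BAR libraries, from 2476 to 3712 fragments. Both TF1-BAR libraries were below both TF1-BA libraries. The mean fell from 33.3 ± 1.24 to 27.01 ± 1.26 FPKM (SD, n = 2 each), a log2 fold change of −0.30 (SE 0.0701, adjusted p = 0.0368, limma). The call held in 10 of 19 alternatives. It ended rescaled to TPM (−0.23, adjusted p = 0.0679), with no filter (adjusted p = 0.0791), with no trend of the spread (adjusted p = 0.0810), with the replicate block (adjusted p = 0.0543, or 0.0564 with the trend on GC content, length and level removed as well, all limma) and with any 1 library left out.

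Among the accessory subunits of PRC2, *JARID2* made up 44.5% and 43.2% of the summed FPKM of *JARID2*, *AEBP2*, *MTF2*, *PHF1* and *PHF19* in TF1-BA libraries. In TF1-BAR libraries its share was 34.4% and 35.9%, a difference of −8.66 percentage points (exact two-sided permutation p = 0.33, the smallest possible). *AEBP2*, the other subunit of PRC2.2, had a log2 fold change of −0.20 (SE 0.168, adjusted p = 0.405, limma). With each library left out in turn this value of *AEBP2* ran from −0.42 to 0.013. *PHF19*, one of the alternative subunits that define PRC2.1, had 9.39 and 9.58 FPKM in TF1-BA and 13.8 and 15.9 FPKM in TF1-BAR libraries and rose by 0.62 on the log2 scale (SE 0.0939, adjusted p = 0.0138, limma). Its relatives *PHF1* and *MTF2* had log2 fold changes of 0.28 (adjusted p = 0.0852, limma) and −0.052 (adjusted p = 0.708, limma). Thus the fitted values of *JARID2* and *PHF19* went in opposite directions, each past the threshold. Whether the forms of the complex differ in amount was not measured.

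**Figure D2:**
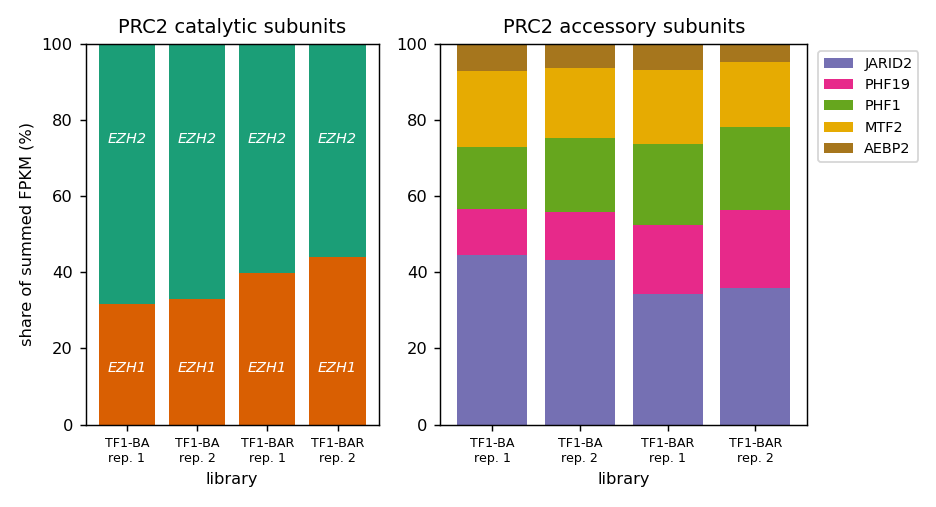
Stacked bars of the share (%) of the summed FPKM in each of the 4 libraries, for the alternative catalytic subunits of PRC2 (left) and its accessory subunits (right). The *EZH1* part was 31.8% and 33.1% in TF1-BA and 39.95% and 43.9% in TF1-BAR libraries, and the *JARID2* part was 44.5% and 43.2% in TF1-BA and 34.4% and 35.9% in TF1-BAR libraries.

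Of the chromodomain subunits of PRC1 among the 9 genes, *CBX2* and *CBX8* rose and *CBX7* did not pass the test. *CBX2* (ENSG00000173894, chr17:79778132-79787983, plus strand), which compacts nucleosomes, had 6.14 and 5.76 FPKM in TF1-BA and 8.79 and 9.34 FPKM in TF1-BAR libraries, from 507 to 854 fragments. The mean rose from 5.95 ± 0.265 to 9.07 ± 0.390 FPKM (SD, n = 2 each), a log2 fold change of 0.57 (SE 0.0813, adjusted p = 0.0123, limma) or 1.48-fold. *CBX2* lay below *EZH2* in every TF1-BA library and above it in every TF1-BAR library.

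*CBX8* (ENSG00000141570, chr17:79792132-79801683, minus strand) lies next to *CBX2* in the CBX cluster on chromosome 17. It had 2.25 and 2.47 FPKM in TF1-BA and 3.25 and 3.24 FPKM in TF1-BAR libraries, from 159 to 217 fragments. Both TF1-BAR libraries were higher, with a log2 fold change of 0.39 (SE 0.0980, adjusted p = 0.0436, limma) or 1.31-fold. The call held in 7 of 19 alternatives and ended, among others, with no filter (adjusted p = 0.104), upper-quartile scaling (0.0508), quantile normalization (0.0886), chromosome centring (0.0729) and the trend on GC content, length and level removed (0.0666, all limma adjusted p). The median log2 fold change of the 925 tested genes of chromosome 17 was 0.113.

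*CBX7* (ENSG00000100307, chr22:39120167-39152674, minus strand), which is known to sustain self-renewal of blood stem cells, was the lowest of the 9 genes. It had 0.832 and 1.05 FPKM in TF1-BA and 0.621 and 0.842 FPKM in TF1-BAR libraries, from only 73 to 121 fragments. The lines overlapped and the log2 fold change was −0.23 (SE 0.189, adjusted p = 0.406, limma), with a standard error larger than that of the other 8 genes. It was −0.38 after quantile normalization, −0.42 with chromosome centring and −0.36 by voom on the fragments, none past the threshold. With each library left out in turn it ran from −0.36 to −0.098. An antisense non-coding gene covers 17.9% of the exon bases of *CBX7*, and reads of such a pair cannot be told apart where counting ignores strand.

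*RING1* (ENSG00000204227, chr6:33208495-33212722, plus strand), a ubiquitin ligase of PRC1, had 25.03 and 27.7 FPKM in TF1-BA and 26.6 and 26.3 FPKM in TF1-BAR libraries, from 763 to 821 fragments. The TF1-BAR values lay between the TF1-BA values. The log2 fold change was 0.0055 (SE 0.0758, adjusted p = 0.965, limma), and its sign turned under upper-quartile scaling (−0.021), with each chromosome centred on its median (−0.012) and with the median deviation of each chromosome removed (−0.055). Its partner *RNF2* had 12.02 and 11.9 FPKM in TF1-BA and 10.9 and 10.5 FPKM in TF1-BAR libraries, with a log2 fold change of −0.16 (adjusted p = 0.156, limma).

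Ranked by level per length in TF1-BA cells, the genes ran *JARID2*, *RING1*, *SUZ12*, *EED*, *EZH2*, *CBX2*, *EZH1*, *CBX8* and *CBX7*, and no neighbours in that order overlapped between libraries. In TF1-BAR cells *JARID2* and *RING1* overlapped, as did *SUZ12* and *EED*, and *CBX2* stood above *EZH2*. The summed level of the 9 genes was nearly the same in all libraries, 113.7 and 111.7 FPKM in TF1-BA and 113.1 and 113.3 FPKM in TF1-BAR.

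The calls rest on few libraries. The number of the 9 genes past the threshold fell from 4 to 0 when TF1-BA replicate 1, TF1-BA replicate 2 or TF1-BAR replicate 2 was left out. It fell to 2 (*EZH1* and *CBX2*) in the absence of TF1-BAR replicate 1. Without TF1-BA replicate 1, TF1-BA replicate 2 and TF1-BAR replicate 2, the adjusted p (limma) was 0.143, 0.116 and 0.0794 for *EZH1* and 0.0893, 0.108 and 0.0614 for *CBX2*. With TF1-BA replicate 1, TF1-BA replicate 2, TF1-BAR replicate 1 and TF1-BAR replicate 2 left out in turn, it was 0.232, 0.162, 0.0771 and 0.0678 for *JARID2* and 0.241, 0.162, 0.106 and 0.129 for *CBX8*. At an unadjusted p under 0.05 (limma), 3, 4 and 5 of the 9 genes passed when those 3 libraries were left out, in the order given. Over all genes tested 27.1%, 28% and 35.3% passed in the same fits. In these fits the lone library is assumed to vary like the pair of the other line. The directions of all 4 were kept, with log2 fold changes over all 4 omissions of 0.48 to 0.70 for *EZH1*, 0.53 to 0.61 for *CBX2*, −0.35 to −0.25 for *JARID2* and 0.33 to 0.45 for *CBX8*.

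The rest of the Polycomb genes was drawn from a list of 46 other subunits and antagonists, of which 44 were in the table and 43 passed the filter. *EZHIP*, an inhibitor of PRC2, had at most 1 fragment in any library, which is under 3 fragments, and *AUTS2* and *ASXL3* were not analysed here. Of the 43, 10 were higher, 4 were lower and 29 did not pass the test, that is 32.6% called against the 26.9% of all genes. Their median log2 fold change was 0.056, close to the 0.066 of all genes.

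The 4 lower genes were *BMI1*, *PCGF5* and *PCGF6*, which encode PCGF subunits that set the type of PRC1, and *LCOR*, whose locus encodes a PRC2.1 subunit. *BMI1*, the PCGF subunit best known for stem cell self-renewal, had 8.35 and 7.43 FPKM in TF1-BA and 4.38 and 2.70 FPKM in TF1-BAR libraries (log2 fold change −1.08, SE 0.214, adjusted p = 0.0253, limma). *PCGF5* had 1.31 and 1.09 FPKM in TF1-BA and 0.336 and 0.352 FPKM in TF1-BAR libraries (−1.01, SE 0.179, adjusted p = 0.0198, limma). Both lay lower in each TF1-BAR library, although the TF1-BAR replicates of *BMI1* differed widely. *PCGF6* had 14.95 and 13.98 FPKM in TF1-BA and 10.1 and 8.52 FPKM in TF1-BAR libraries (−0.61, SE 0.103, adjusted p = 0.0178, limma). *LCOR* had 3.39 and 3.20 FPKM in TF1-BA and 2.07 and 1.87 FPKM in TF1-BAR libraries (−0.62, SE 0.104, adjusted p = 0.0174, limma). The other PCGF genes did not pass the test, and *PCGF2*, the close relative of *BMI1*, had a log2 fold change of 0.18 (adjusted p = 0.156, limma), with 48.5% of its exon bases shared with *CISD3* on the opposite strand.

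All 4 of these lower genes lie on chromosome 10, and no member of the list on another chromosome was lower in the same fit. Over the 593 tested genes of chromosome 10 the median log2 fold change was −0.35, with 44.5% lower and 4.38% higher, against 10.5% and 16.3% of all genes. With the median deviation of each chromosome removed, an alternative chosen after seeing the data, the log2 fold change was −0.72 for *BMI1* (adjusted p = 0.0620), −0.65 for *PCGF5* (adjusted p = 0.0566), −0.26 for *PCGF6* (adjusted p = 0.114) and −0.26 for *LCOR* (adjusted p = 0.114), all by limma and none past the threshold. In that fit 6 genes of the list were higher and 2 were lower, both on chromosomes other than 10. Of all 15519 genes, 1866 were higher and 1904 were lower there. With each chromosome centred on its median in each library the value of *BMI1* was −0.67 (adjusted p = 0.0773, limma). The value of *PCGF5*, a low gene, depended on the pseudocount and was −1.55 with 0.1 FPKM added.

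The 10 higher genes were spread over both complexes and their partners. In PRC2 they were *PHF19* and *RBBP4*, a histone-binding subunit that PRC2 shares with other chromatin complexes (0.31, adjusted p = 0.0280, limma), while its relative *RBBP7* had a value of 0.00028 (adjusted p = 0.998, limma). In canonical PRC1 they were *CBX6* (0.36, adjusted p = 0.0342, and 0.16 with adjusted p = 0.269 under chromosome centring), *PHC1* (0.48, adjusted p = 0.0131) and *SCMH1* (0.62, adjusted p = 0.0164, all limma), and *PHC1* shares 18% of its exon bases with the antisense gene *M6PR*. In variant PRC1, the forms without a CBX protein that binds the PRC2 mark, they were *E2F6*, a DNA-binding repressor (0.52, adjusted p = 0.0111), *DCAF7* (0.31, adjusted p = 0.0254) and *FBRSL1* (0.61, adjusted p = 0.0470, all limma). *ASXL1* and *FOXK2* belong to the PR-DUB complex, which removes the ubiquitin that PRC1 puts on histone H2A, and had values of 0.65 (adjusted p = 0.0101) and 0.40 (adjusted p = 0.0486, both limma). The calls of *CBX6*, *FBRSL1* and *FOXK2* held in only 8, 9 and 8 of 19 alternatives. Under chromosome centring the adjusted p (limma) was 0.0591 for *FBRSL1*, 0.0573 for *FOXK2* and 0.0768 for *RBBP4*, and after quantile normalization it was 0.0605 for *FBRSL1*, 0.0652 for *FOXK2* and 0.0554 for *CBX6*. With no filter on low values, 3 of the 14 calls held.

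*ASXL1* lies on chromosome 20, where the median over 440 tested genes was 0.39 on the log2 scale and 46.8% were higher, and without the median deviation of its chromosome it was 0.25 (adjusted p = 0.0681, limma). On the chromosomes other than 10 and 20, 9 of 38 genes were higher and 0 were lower, with a median of 0.11. Of all genes tested on any chromosome, 16.3% were higher and 10.5% were lower. With the median deviation of each chromosome removed, 2 of these 38 were lower. The enzymes that remove the PRC2 mark, *KDM6A* and *KDM6B*, had log2 fold changes of 0.099 (adjusted p = 0.387) and 0.12 (adjusted p = 0.390, both limma). The number called among the 43 genes was 0 when TF1-BA replicate 1, TF1-BA replicate 2 or TF1-BAR replicate 2 was left out, and 11 in the absence of TF1-BAR replicate 1. At an unadjusted p under 0.05 (limma), 11, 13 and 15 of the 43 passed in the 3 fits that called 0, in the order given, against the same 27.1%, 28% and 35.3% of all genes. Without these first 3 libraries in turn, the log2 fold change of *BMI1* was −1.003, −1.16 and −0.78. That of *FBRSL1* was 0.39 without TF1-BAR replicate 2.

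**Figure D3:**
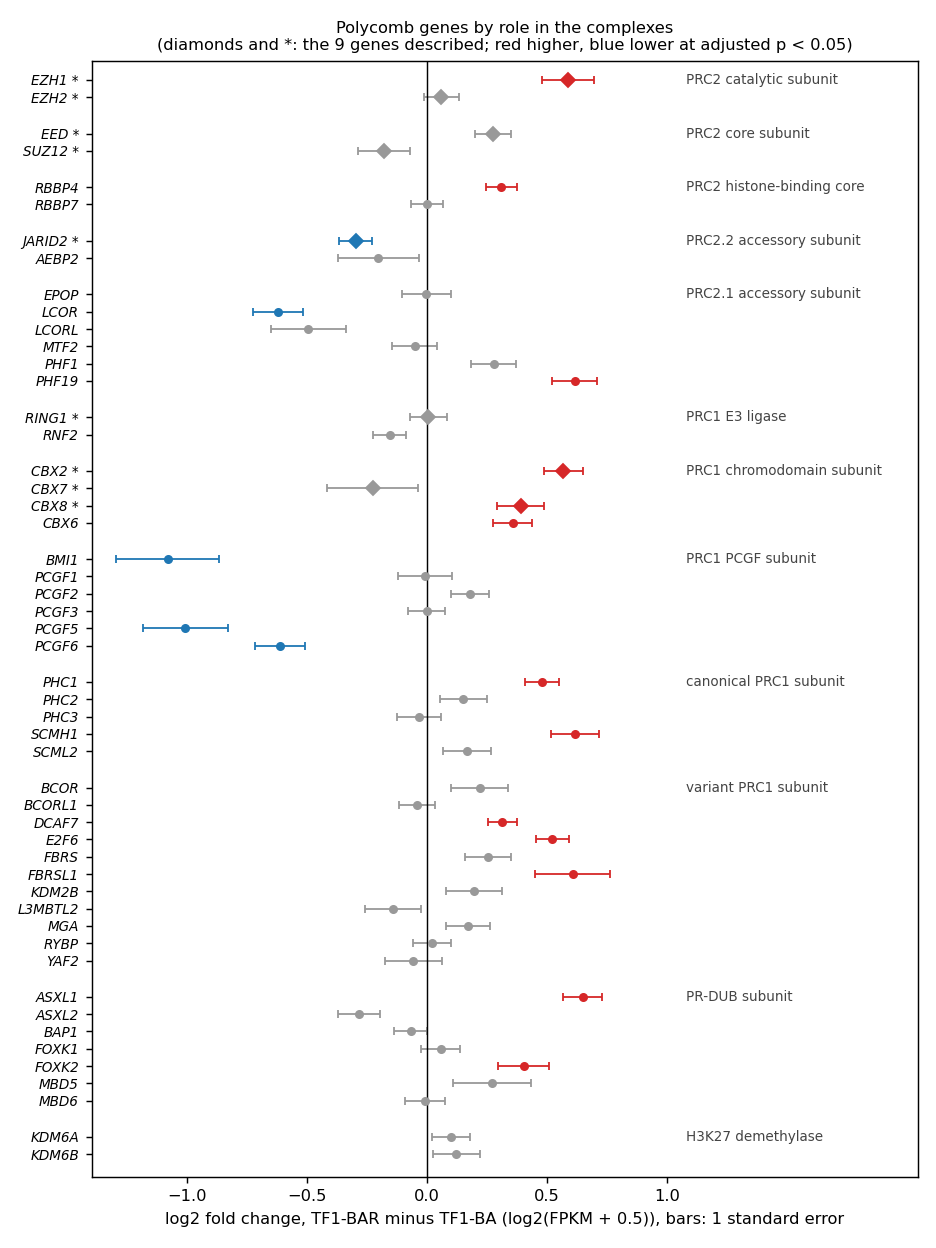
Log2 fold changes of TF1-BAR over TF1-BA (log2(FPKM + 0.5), bars 1 standard error) of the 9 genes (diamonds, starred) and of other Polycomb genes (circles), grouped by role, with adjusted p under 0.05 in red (higher) or blue (lower). The PCGF subunits hold 3 of the 5 lower genes, and *CBX2*, *CBX6* and *CBX8* are red.

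**Figure D4:**
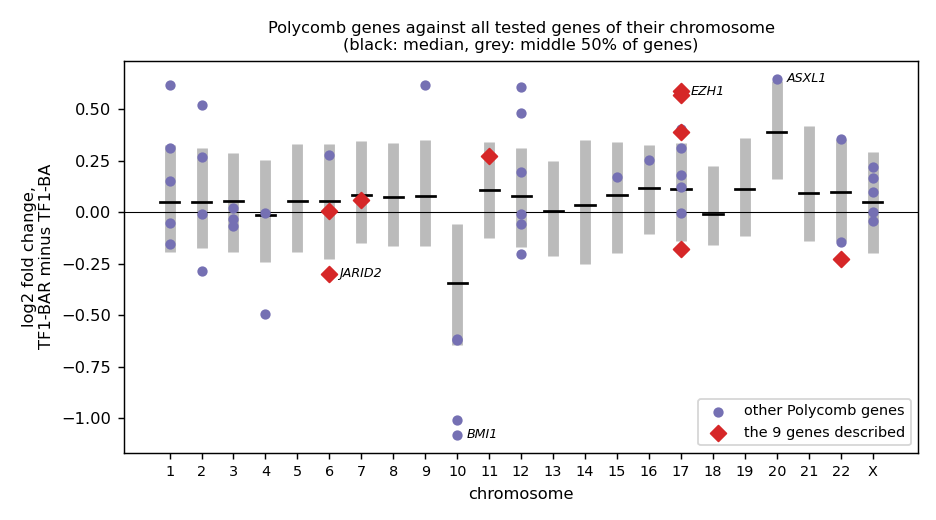
Log2 fold changes of the 9 genes (red diamonds) and the other Polycomb genes (purple circles) by chromosome, over the median (black) and the middle 50% (grey) of all tested genes of that chromosome. The Polycomb genes of chromosome 10 lie below its median of −0.35, *ASXL1* lies above the chromosome 20 median of 0.39, and *EZH1* lies above the chromosome 17 median of 0.113.

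Of the 9 genes, none lies on chromosome 10 or 20. With the median deviation of each chromosome removed, *EZH1* (0.49, adjusted p = 0.0270), *CBX2* (0.47, adjusted p = 0.0172) and *JARID2* (−0.36, adjusted p = 0.0229) still passed the threshold, and *CBX8* (0.30, adjusted p = 0.0863) did not (all limma).

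Genes that Polycomb complexes are known to silence were taken from a list of 18, of which 14 were in the table and 11 passed the filter. Of these 1 was higher, 1 was lower and 9 did not pass the test (18.2% called against 26.9% of all genes), with a median log2 fold change of −0.078. *LIN28B*, an RNA-binding protein of fetal and stem cells, had 4.59 and 4.01 FPKM in TF1-BA and 20.2 and 17.5 FPKM in TF1-BAR libraries (2.01, SE 0.109, adjusted p = 0.00289, limma). *CDKN2B*, the cell-cycle inhibitor p15, had 23.2 and 27.3 FPKM in TF1-BA and 9.87 and 10.0 FPKM in TF1-BAR libraries (−1.30, SE 0.0975, adjusted p = 0.00430, limma). The target genes thus held 1 large change in each direction. Without TF1-BA replicate 2 they had adjusted p-values of 0.0503 and 0.0527 (limma), and without any other library they passed. *CDKN2A*, the classical target of BMI1 and CBX7, had 77.02 and 86.6 FPKM in TF1-BA and 67.2 and 71.5 FPKM in TF1-BAR libraries (−0.24, adjusted p = 0.0911, limma). It was lower past the threshold with chromosome centring (−0.27, adjusted p = 0.0483, limma) and with the median deviation of each chromosome removed (−0.32, adjusted p = 0.0412, limma), where 2 of the 11 targets were lower, and 15.3% of its exon bases are shared with the antisense *CDKN2B-AS1*. Histone marks were not measured in these libraries.

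Because *EZH2* is known to follow proliferation, 15 proliferation genes were read beside it. Of these 3 were higher, 5 were lower and 7 did not pass the test (53.3% called against 26.9% of all genes). Their summed level was 736.9 and 676.9 FPKM in TF1-BA and 655.7 and 637.3 FPKM in TF1-BAR libraries. *CDK1*, the kinase that drives entry into mitosis, fell by 1.49 on the log2 scale (adjusted p = 0.00595, limma) and *MKI67* by 0.87 (adjusted p = 0.00534, limma), both on chromosome 10, and *RRM2* fell by 0.80 (adjusted p = 0.0101, limma). *E2F1*, on chromosome 20, rose by 0.79 (adjusted p = 0.00891, limma). With the median deviation of each chromosome removed the values were −1.13 for *CDK1*, −0.51 for *MKI67* and 0.39 for *E2F1*, all still past the threshold. With either TF1-BA replicate 1 or TF1-BA replicate 2 left out, 0 of the 15 genes passed in limma (8 at an unadjusted p under 0.05 in each case, against 27.1% and 28% of all genes), and 3 did without TF1-BAR replicate 2. The study was about SETD2, the H3K36 methyltransferase, and reported its mRNA as unchanged by qRT-PCR and its protein as lower in TF1-BAR cells. In these libraries the *SETD2* mRNA had 9.45 and 9.11 FPKM in TF1-BA and 12.1 and 12.4 FPKM in TF1-BAR (0.38, SE 0.0703, adjusted p = 0.0213, limma). Without TF1-BA replicate 1, TF1-BA replicate 2 and TF1-BAR replicate 2 its adjusted p was 0.134, 0.157 and 0.0711 (limma).

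The genes with the profile most like *EZH2* over the 4 libraries, by Euclidean distance of library-centred log2 values, were *GTF2IP14*, *TPRN* and *PIP5K1A*, at distances of 0.0068, 0.0088 and 0.012. For *EZH1* they were *C20orf203*, *HOXA5* and *AP001171.1*, at distances of 0.016, 0.024 and 0.025. With only 4 libraries such likeness is common, as 871 genes lay within 0.1 of *EZH2* and 155 within 0.1 of *EZH1*.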

How the data were processed

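Total RNA of TF1-BA and TF1-BAR cells (n = 2 libraries each) was sequenced by the authors with an NEBNext Ultra kit, reads were mapped to GRCh38 with TopHat2 2.0.13, and Cufflinks and Cuffdiff 2.2.0 were run. The authors deposited FPKM per gene and library, without log transformation. Their own test was a count model, and the deposited unit called for another test here. Whether counting used strand is not given in the sources used here.

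log2(FPKM + 0.5) was fitted with limma 3.58.1 (R 4.3.3; lmFit, eBayes with trend) over the 15519 genes averaging 0.5 FPKM or more, with Benjamini-Hochberg adjustment and calls at 0.05. FPKM were turned back into fragments, whole within 0.001 for all 30853 genes above 0 (14220 at the GENCODE 44 exon length, 16633 at a fitted length), which held 98.7% of each library. Fragment numbers cover counting error only. Shares were compared by exact two-sided permutation tests over libraries. The test was checked on simulated data.

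The members and lists were chosen with earlier results of these data known. All 9 members are named, as are every other Polycomb gene called and up to 12 further ones by role, up to 4 genes with the largest change of each remaining list, and *SETD2*. *CDKN2A*, *CD3E*, *COL1A2*, *KRT5*, *EZHIP* and *PCNA* were named after their values were seen. Alternatives covered the pseudocount, filter, scaling, chromosome centring, spread, replicate block, GC content and length, voom on the fragments, and each library left out. 1 gene of the lists is counted but not reported here.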

Additional observations from a re-analysis of the deposited data

How the results depend on the processing

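All counts here are at an adjusted p under 0.05 (limma, Benjamini-Hochberg). The 4 calls among the 9 genes became 1 with no filter on low values, 2 with the replicate block and 0 with a log2 fold change of 1 or more in size required as well, and 0 to 2 with a library left out. The 14 calls among the other Polycomb genes became 3 with no filter, 6 with each chromosome centred on its median, 8 with the median deviation of each chromosome removed, 9 with no trend of the spread, 2 with that fold change required, and 0 to 11 with a library left out. The 4167 calls among all genes became 1446 with no filter, 737 with that fold change required, and 42 to 3176 with a library left out. Under the other alternatives these 3 counts stayed within 1.5 times. The share of *EZH1* kept its direction without length scaling of the fragments and with each library left out. No alternatives were run for the share of *JARID2*.

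Over 19 alternatives the call held in 15 for *EZH1*, 16 for *CBX2*, 10 for *JARID2* and 7 for *CBX8*, with an adjusted p (limma) of 0.000496 to 0.143, 0.000282 to 0.108, 0.00805 to 0.232 and 0.0171 to 0.241. *PCNA*, called higher at 0.38, was −0.066 with chromosome centring and −0.017 with the median deviation removed. The other signs that turned were of uncalled genes, and not all are listed. With the trend on GC content, length and level removed *RNF2* was 0.03 and *MTF2* 0.14. *RBBP7* was −0.056 with the median deviation removed, and *AEBP2* was 0.013 without TF1-BAR replicate 2. *EZH2* was −0.062 with chromosome centring and −0.016 with the median deviation removed. *RING1* was −0.021 with upper-quartile scaling, −0.012 with chromosome centring, −0.055 with the median deviation removed, −0.067 without TF1-BA replicate 1 and −0.0038 without TF1-BAR replicate 1, and up to 0.078 over the libraries left out. The cause was not tested.

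Of all calls 60.9% were higher in TF1-BAR cells (2537 higher, 1630 lower), against 51.2% after quantile normalization (2043 and 1944), 48.4% with chromosome centring (1793 and 1912) and 49.5% with the median deviation removed (1866 and 1904). Rescaled to TPM the share was 70.1% (3182 and 1354 among 4536) and the median of all genes was 0.125, against 0.066.

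The labels do not say whether libraries of the same replicate number were paired. The correlation of same-numbered deviations over the tested genes was 0.0646, a single value that cannot exclude a pairing. With the replicate block 2 of the 9 genes (*EZH1* and *CBX2*), 14 other Polycomb genes and 3969 genes in all were called, and the calls of *JARID2* (adjusted p = 0.0543, limma) and *CBX8* (adjusted p = 0.0593, limma) ended. Of the 9 TF1 markers 6 were higher and 1 was lower with the block, against 2347 higher and 1622 lower of the 15519 genes tested.

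With 2 libraries a line, a p-value that misses the threshold does not show that a gene did not differ, and *CBX7* in particular rests on few fragments.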
